A study of Homo sapiens with 4 samples.

Results

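The metallothioneins MT1E, MT1F, MT1G, MT1M, MT1X and MT2A were followed by gene symbol through RNA sequencing libraries of EJ and T24T, both human bladder cancer lines. These 6 members are 6 of the 56303 genes of the deposited count table, and 4 of them, MT2A, MT1E, MT1X and MT1F, had enough reads to be tested. T24T is a derivative of the T24 line, and EJ stocks are listed in cell line registers as derived from T24 too, so the lines may share their origin. Either line had received hsa_circ_0008399, a circular RNA (circ), or the vector, by transfection, and the labels name no other treatment. The 4 groups therefore hold 1 library each, and no difference within a line has a replicate check. Total counts lay between 14703455 and 18057768 per library.

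Metallothioneins are small cytosolic proteins that bind zinc, copper, cadmium and other metals, platinum among them, through the thiols of many cysteines. Zinc induces their genes through MTF1, a zinc-sensing transcription factor that binds short metal response elements in their promoters, and glucocorticoids and oxidants induce some of them as well. MT2A and the MT1 genes are the widely expressed forms, while MT3 and MT4 are best known from brain and squamous epithelium.

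Of the markers of the labelled cell type, the epithelial keratin genes KRT7, KRT8 and KRT18 had between 2164 and 14341 counts in every library. Other epithelial markers were low, with 3 or 4 counts of KRT19, 0 to 3 of CDH1, and 7 and 4 of EPCAM in EJ against 117 and 111 in T24T. Markers of differentiated or basal urothelium were low or absent, with KRT5 and UPK3A at 0 in all libraries and GATA3 at 0 or 1. Among leukocyte markers, PTPRC, CD3E and LYZ were at 0 throughout, CD14 had 1 or 2 counts, and CD68 had 160 and 216 in EJ and 951 and 1111 in T24T.

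The members resemble each other closely, which bears on how reads were divided among them. Each of the 6 has a coding sequence of 61 codons, of which 20 are the cysteine codons TGC or TGT. Over the 15 pairs of members, identity of the coding bases lay between 88.7% and 95.2%. The coding sequences of the 4 members with enough reads are shown to let their differences be seen, from GENCODE release 29 transcripts on GRCh38, 5′ to 3′ in the sense of the mRNA. Capitals mark the bases that differ from MT2A.
MT2A: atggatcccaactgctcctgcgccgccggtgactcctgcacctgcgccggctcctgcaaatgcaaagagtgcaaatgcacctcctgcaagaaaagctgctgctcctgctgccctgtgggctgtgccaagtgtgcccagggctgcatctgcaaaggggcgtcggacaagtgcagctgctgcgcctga
MT1E: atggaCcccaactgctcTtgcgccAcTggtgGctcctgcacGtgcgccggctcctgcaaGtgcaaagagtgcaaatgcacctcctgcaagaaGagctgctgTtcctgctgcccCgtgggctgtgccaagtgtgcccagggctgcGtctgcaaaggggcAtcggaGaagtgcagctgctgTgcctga
MT1X: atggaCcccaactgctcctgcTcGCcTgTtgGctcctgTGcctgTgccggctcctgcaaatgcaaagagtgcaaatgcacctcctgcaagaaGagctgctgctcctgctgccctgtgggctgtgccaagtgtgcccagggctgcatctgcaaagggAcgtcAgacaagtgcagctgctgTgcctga
MT1F: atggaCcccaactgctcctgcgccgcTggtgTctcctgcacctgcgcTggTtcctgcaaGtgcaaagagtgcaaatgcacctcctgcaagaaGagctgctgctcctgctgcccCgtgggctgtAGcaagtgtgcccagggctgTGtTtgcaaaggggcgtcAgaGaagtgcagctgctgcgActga
MT1E and MT1X each differ from MT2A at 14 of 186 bases and MT1F at 16. Among the members with hardly any reads, MT1G differs from MT2A at 9 bases and MT1M at 19. Exact matches are short: of all 50-base windows of the main transcript, 4.88% of MT2A, 5.34% of MT1E and 3.59% of MT1F recurred in a transcript of another gene, and of all 100-base windows none did. MT1X stood apart with 45.1% of its 50-base windows and 19.1% of its 100-base windows, the latter all shared with AC026461.1 of release 29. In the count table, exons of the noncoding gene RP11-343H19.2 overlap MT1X. Whether both names stand for the same gene was not tested. The read length is not given in the sources used here, so how many reads could fit more than 1 gene is not known.

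The promoters of MT2A and MT1X are shown because these were the only members in the promoter set used. The choice did not depend on their response to circ. Both were searched for the core motif of the metal response element. The motif was searched as TGCACNC or TGCGCNC on both strands of the 250 bases before the gene start, and matches are in capitals. The start is that of RefSeq, the base after each window, and lies downstream of the first base of the gene in the count table. Sequences are from RefSeq on GRCh38.p14, plus strand, at chr16:56608334-56608583 for MT2A and chr16:56682220-56682469 for MT1X.
MT2A: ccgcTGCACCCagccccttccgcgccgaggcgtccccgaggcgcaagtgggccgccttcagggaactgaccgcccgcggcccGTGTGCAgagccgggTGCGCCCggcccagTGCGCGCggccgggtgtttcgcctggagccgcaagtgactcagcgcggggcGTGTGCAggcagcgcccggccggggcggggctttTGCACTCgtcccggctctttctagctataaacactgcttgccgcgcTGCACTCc
MT1X: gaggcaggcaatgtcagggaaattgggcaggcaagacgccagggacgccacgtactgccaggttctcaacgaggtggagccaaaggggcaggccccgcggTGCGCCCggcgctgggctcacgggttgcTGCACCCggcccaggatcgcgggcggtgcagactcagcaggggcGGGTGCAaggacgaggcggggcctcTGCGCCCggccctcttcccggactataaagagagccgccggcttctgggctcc
The MT2A window held 7 matches, 5 on the strand of the gene and 2 on the other, the nearest starting 8 bases before the gene start. The MT1X window held 4 matches, 3 and 1, which began between 150 and 53 bases before the start. Of 35116 promoter windows of the same length, 0.37% held 4 or more matches and 0.051% held 6 or more. Windows of genes without reads held matches too, 8 for MT1H and 3 for MT1B, both at 0 counts in every library, and 3 for MT4, with 2 counts in all. A match of letters is a description and not a shown binding site. Promoters of MT1E, MT1F, MT1G and MT1M were not analysed here.

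MT2A, the main human metallothionein gene (chromosome 16, 56608199 to 56609497, plus strand, hg38), carried nearly the whole metallothionein signal. The EJ libraries held 77147 MT2A counts with vector and 47722 with circ, and the T24T libraries held 211756 and 156975. By RPKM, the deposited level scaled for gene length and depth, MT2A stood at 3797 with vector and 2499 with circ in EJ, against 9666 and 6692 in T24T. Each circ library was below the vector library of its own line, and both T24T libraries were above both EJ libraries. Ranked by RPKM over all genes, MT2A stood at place 9 in EJ vector, 13 in EJ circ and 2 in both T24T libraries. It took between 98.3% and 99.0% of all counts on the 20 metallothionein genes and pseudogenes of the table.

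MT1E (chromosome 16, 56625475 to 56627112, plus strand) was counted 679 times with vector and 404 times with circ in EJ, and 3109 and 1865 times in T24T. These counts correspond to 41.3, 26.1, 175 and 98.2 RPKM in the same order. The order of the libraries was that of MT2A, with the gap between lines wider.

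MT1X (chromosome 16, 56682424 to 56684196, plus strand) was counted 146 times with vector and 71 times with circ in EJ, and 382 and 213 times in T24T, or 5.27, 2.72, 12.8 and 6.65 RPKM. The libraries stood in the same order once more. MT1X shares 321 of its 1773 exonic bases with RP11-343H19.2, which had 136, 66, 350 and 190 counts. Rows of the table can share reads: of 120 genes of 200 or more bases lying wholly within a same-strand gene with at least 400 counts, 90 had 20 or more counts. The counts of MT1X and RP11-343H19.2 can therefore not be told apart in these files.

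MT1F (chromosome 16, 56657694 to 56660698, plus strand) was counted 11 times with vector and 14 times with circ in EJ, and 60 and 67 times in T24T, or 0.372, 0.504, 1.88 and 1.96 RPKM. Unlike the members above, it was not lower in either circ library. By RPKM the order in every library was MT2A, MT1E, MT1X and MT1F, and the ranges over the 4 libraries of neighbours in this order did not overlap. The lengths behind RPKM join all annotated exons, 1773 bases for MT1X and 1889 for MT1F, while their main transcripts have 450 and 690 bases.

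**Figure D1:**
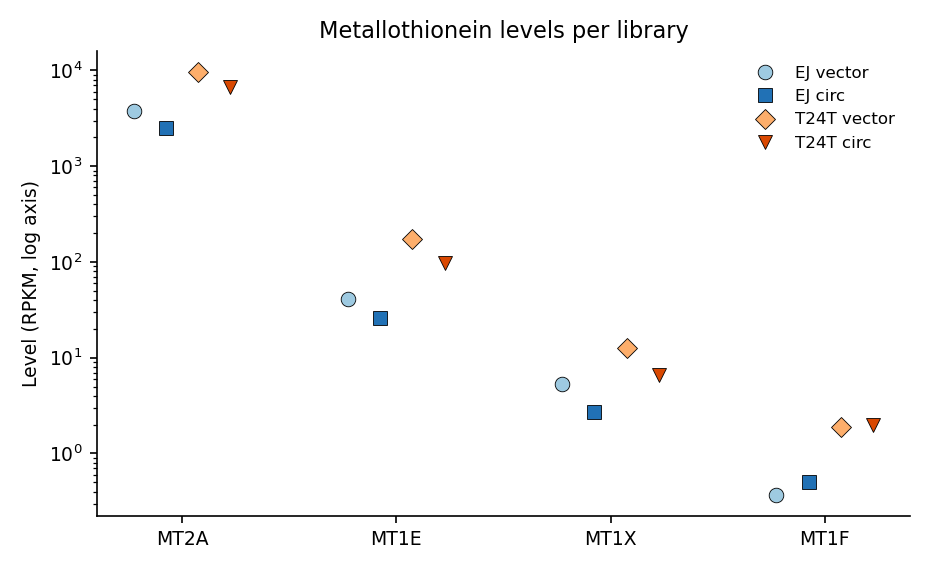
Levels of the 4 tested members in each library, as deposited RPKM on a log axis, with 1 point per library. MT2A lies between 2499 and 9666 RPKM and MT1F under 2, and for MT2A, MT1E and MT1X each circ library is below the vector library of its line.

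MT1G and MT1M were close to absent. MT1G had 0 counts in both EJ libraries, 2 in T24T vector and 1 in T24T circ, and MT1M had 1 count, in T24T circ. A count of 0 allows up to 3 counts, which scaled to depth is 0.192 CPM in EJ vector and 0.204 in EJ circ. No fold is given for these genes. Of the 14 other metallothionein genes and pseudogenes of the table, 5 had no count in any library, MT1B, MT1H, MT1DP, MT1JP and MT1HL1. A further 8, MT1A, MT1L, MT1CP, MT1P1, MT1P3, MT1XP1, MT3 and MT4, had between 1 and 5 counts over all libraries.

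The remaining one, MT2P1, is a processed pseudogene on chromosome 4 whose 183 bases match the MT2A coding sequence at 97.3%. It had 13 and 8 counts in the EJ libraries and 48 and 19 in those of T24T, vector first, which is between 0.121 and 0.227 counts per 1000 counts of MT2A. Whether these reads came from MT2P1 or from MT2A cannot be told apart, and the row is reported as uncertain.

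The series screened for genes downstream of the circular RNA, and over both lines MT1X, MT1E and MT2A fell with circ. Of these, MT1X had the largest log2 fold change, -0.93 ± 0.15 (fitted value ± SE, n = 2 lines, edgeR quasi-likelihood test with Benjamini-Hochberg adjusted p = 4.43e-05). MT1E changed by -0.74 ± 0.09 (edgeR adjusted p = 6.56e-07) and MT2A by -0.55 ± 0.07 (edgeR adjusted p = 3.46e-06). MT1F, at 0.16 ± 0.30 (edgeR adjusted p = 0.791), did not pass. Among all 17689 genes tested, 12.7% were called, 5.56% as falls and 7.13% as rises, and the median log2 fold change was 0.0018. The uncertain MT2P1 row passed at -1.17 ± 0.39 (edgeR adjusted p = 0.0438), with 8 counts in its smallest library. The fit leaves 1 residual degree of freedom, so each SE rests mostly on spread pooled over genes. DESeq2 called MT1E and MT2A and gave no adjusted p for MT1X (unadjusted p = 0.00065). DESeq2 gave MT2P1 an unadjusted p of 0.180. With limma on log2(RPKM + 1) or log2(RPKM + 0.1), which keep the cell line block, and with edgeR without that block, 0 genes were called, against 3588, 3713 and 397 at an unadjusted p under 0.05. For MT2A the limma adjusted p was 0.139 and 0.117.

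Within each line the ratios were close for 3 of the members. On the log2 scale, circ over vector for MT2A was -0.60 (EJ) and -0.51 (T24T), for MT1E -0.65 and -0.81, and for MT1X -0.93 and -0.91. The standard deviation of the log2 ratios over the 2 lines was 0.06 for MT2A, 0.11 for MT1E and 0.01 for MT1X. Expressed as folds, MT2A was 1.51-fold lower in EJ circ (95% counting interval 1.49 to 1.53) and 1.42-fold lower in T24T circ (1.41 to 1.43). MT1E was 1.57-fold lower in EJ circ (1.39 to 1.78) and 1.76-fold lower in T24T circ (1.66 to 1.86). MT1X was 1.92-fold lower in EJ circ (1.44 to 2.59) and 1.89-fold lower in T24T circ (1.59 to 2.24). These exact binomial intervals cover counting error only, and reads without molecular identifiers are not independent molecules, so they are narrower than the error of a repeated transfection. The interval of MT1F included 1 in both lines, at 0.574 to 3.31 of vector in EJ and up to 1.53 in T24T. Whether the lines differ in response cannot be tested with 1 library per group.

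**Figure D2:**
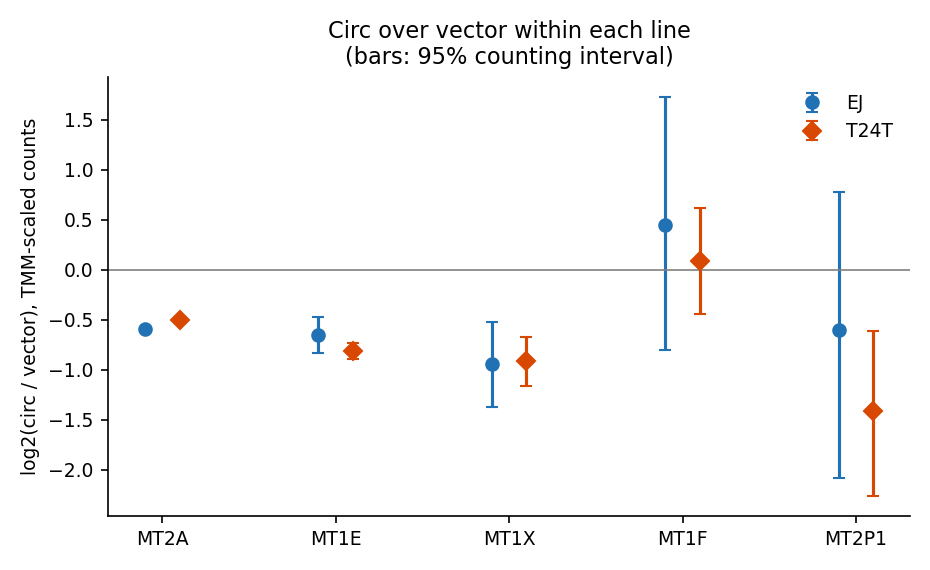
Log2 ratio of circ over vector on TMM-scaled counts within EJ (circles) and T24T (diamonds), with 95% counting intervals, for the 4 tested members and the uncertain pseudogene MT2P1. MT2A, MT1E and MT1X lie below 0 in both lines with their whole intervals, while the intervals of MT1F cross 0.

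Summed over the 6 members, which removes the choice of the gene a read was given to, metallothioneins took 0.499% of all counts in EJ vector (95% Wilson interval 0.495 to 0.502) and 0.328% in EJ circ (0.325 to 0.331). In T24T they took 1.28% with vector (1.27 to 1.28) and 0.881% with circ (0.877 to 0.886). The sum was lower in circ in both lines, 1.51-fold in EJ and 1.43-fold in T24T. With all metallothionein genes and pseudogenes summed to 1 row of the fit, the fall was -0.55 ± 0.07 (edgeR adjusted p = 3.12e-06). In such bulk libraries, fewer cells with metallothionein RNA and less of it per cell cannot be told apart. The share of mitochondrially encoded counts moved in the same libraries, at 5.40% with vector against 4.01% with circ in EJ, and 5.05% against 3.08% in T24T. With these genes left out of the total, the metallothionein share was still lower with circ. It was 0.527% with vector against 0.342% with circ in EJ, and 1.34% against 0.909% in T24T. Any other part of the mitochondrial counts in the result was not tested.

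All 4 tested members were higher in T24T than in EJ. In this comparison the vector and circ libraries of a line served as its repeats, with 1 residual degree of freedom. Its p-values therefore do not measure variation between cultures of a line. Over both transfections MT1F differed by 2.19 ± 0.32 on the log2 scale (edgeR adjusted p = 1.45e-06), MT1E by 2.07 ± 0.09 (edgeR adjusted p = 7.62e-19), MT2A by 1.45 ± 0.07 (edgeR adjusted p = 4.4e-17) and MT1X by 1.34 ± 0.15 (edgeR adjusted p = 4.72e-09). Of all genes tested, 41.4% were called between the lines, 21.9% as higher in T24T and 19.5% as lower. CD68 was likewise higher in T24T by its counts, while PTPRC, CD3E and LYZ were at 0 in all libraries. Genes lower with circ and higher in T24T, as MT1E, MT1X and MT2A were, made up 2.33% of all genes tested. Compared between the vector libraries alone, T24T had 2.65 times the MT2A of EJ (95% counting interval 2.62 to 2.67), 4.41 times the MT1E (4.06 to 4.80), 2.52 times the MT1X (2.08 to 3.07) and 5.26 times the MT1F (2.74 to 11.1). On TMM-scaled CPM, MT2A stood at 8969 in circ-transfected T24T, above the 4817 of vector-transfected EJ.

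MT2A stayed between 98.3% and 99.0% of metallothionein counts, while the ratios of the minor members to MT2A varied between these libraries. MT1E had 8.80 counts per 1000 counts of MT2A in EJ vector (95% counting interval 8.15 to 9.49) and 8.47 in EJ circ (7.66 to 9.34). In T24T it had 14.7 with vector (14.2 to 15.2) and 11.9 with circ (11.3 to 12.4). The intervals of MT1E thus overlapped between the EJ libraries and not between the T24T libraries. MT1X had 1.89 (1.598 to 2.23) and 1.49 (1.16 to 1.88) in EJ vector and circ, and 1.80 (1.63 to 1.99) and 1.36 (1.18 to 1.55) in T24T vector and circ, lower with circ in both lines, with intervals that overlapped in EJ and not in T24T. MT1F had between 0.143 and 0.427, higher with circ in both lines but with intervals that overlapped within each line. These ratios are within a library and so do not depend on its depth or scaling, and they have no replicate check.

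**Figure D3:**
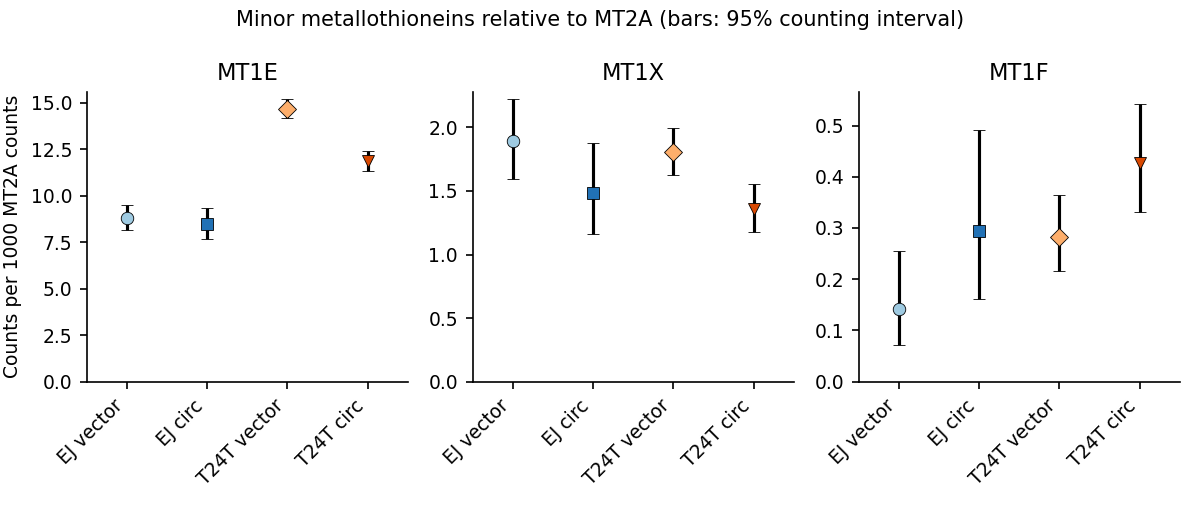
Counts of MT1E, MT1X and MT1F per 1000 counts of MT2A in each library, with 95% counting intervals and axes from 0. MT1E stands at 14.7 in T24T vector and 11.9 in T24T circ, above the EJ libraries, which lie at 8.80 and 8.47.

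The 15 metallothionein genes on chromosome 16 lie between positions 56565049 and 56684196 (hg38), and most other tested genes around them did not pass for circ. Of 15 other genes tested within 500 kb of this cluster, 2 fell, 1 rose and 12 did not pass, with a median log2 fold change of -0.13, where 12.7% of all genes tested were called. DESeq2 called 0 of these neighbours, and at an unadjusted p under 0.05 by edgeR 4 were lower and 1 higher. The falls were those of RP11-343H19.2, which shares exons with MT1X (-0.95 ± 0.15, edgeR adjusted p = 4.55e-05), and BBS2, a ciliary transport gene (-0.32 ± 0.09, edgeR adjusted p = 0.0198). HERPUD1, an ER stress gene, rose by 0.80 ± 0.15 (edgeR adjusted p = 0.00037), with 390 and 422 counts in EJ and 328 and 882 in T24T. Of the tested protein-coding genes, BBS2 was the nearest before the cluster and NUP93, a nuclear pore gene, the nearest past it. NUP93 (-0.14 ± 0.08) and OGFOD1, an oxygenase gene beyond BBS2 (0.13 ± 0.09), did not pass. RP11-249C24.10, a noncoding gene on the opposite strand whose 3′ end lies just past that of MT2A, had 3 and 7 counts in EJ and 74 and 58 in T24T. It did not pass for circ (-0.25 ± 0.33) and was higher in T24T by 3.55 (edgeR adjusted p = 1.23e-08). Between lines, 6 of the 15 neighbours were higher in T24T by edgeR and 0 lower, with 7 and 0 at an unadjusted p under 0.05 and 3 and 0 by DESeq2, where 21.9% of all genes tested were higher and 19.5% lower.

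**Figure D4:**
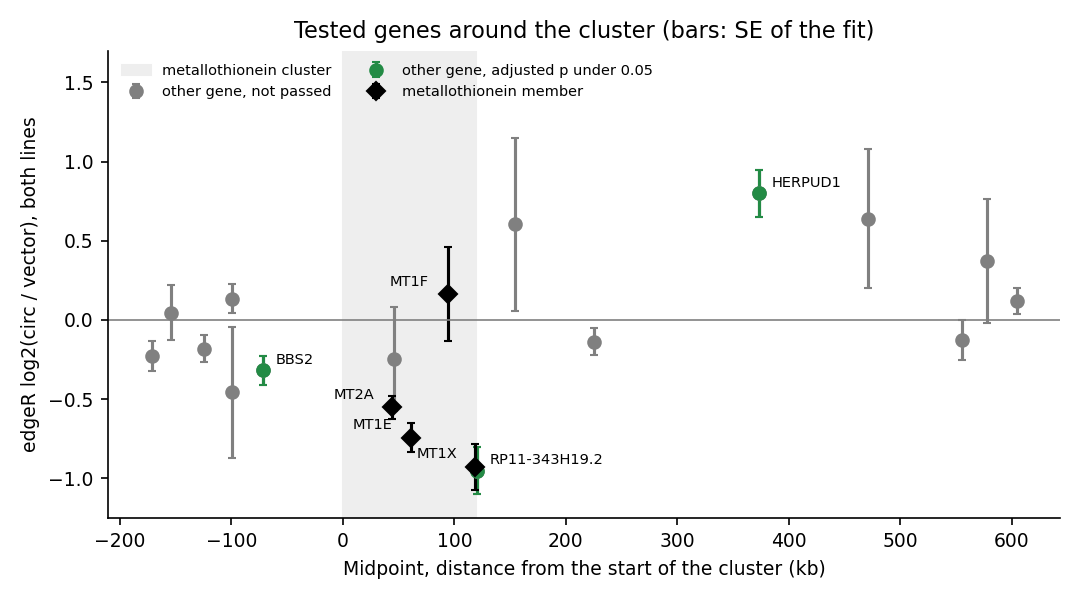
Log2 fold change of circ over vector in both lines (edgeR, bars show the SE) for tested genes around the metallothionein cluster, by distance of the gene's midpoint from the start of the cluster. MT1X and RP11-343H19.2 coincide near -0.93, MT1E and MT2A lie between them and 0, and 12 of 15 neighbours did not pass.

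The regulator of metallothioneins did not pass for circ over vector. MTF1 was counted 381 and 389 times in EJ and 321 and 334 times in T24T, vector first, with a fitted log2 difference of 0.06 ± 0.11 (edgeR adjusted p = 0.813). Between lines MTF1 was lower in T24T by edgeR, at -0.37 ± 0.11 (edgeR adjusted p = 0.00924). SLC30A1, the plasma membrane zinc exporter and a textbook target of MTF1, had 126, 108, 101 and 98 counts in the same order and -0.12 ± 0.17 (edgeR adjusted p = 0.722). In the list of metal-responsive transcription and MTF1 targets, 2 of 13 tested members rose and 1 fell, with a median of -0.02, where 7.13% of all genes rose and 5.56% fell. DESeq2 called 0 of this list higher and 1 lower. The rises were those of CREBBP, a coactivator gene (0.35 ± 0.09), and NDRG1, better known as a hypoxia gene (0.58 ± 0.15), which stood at -0.22 within EJ but 0.98 within T24T. The fall was that of SLC39A10, a zinc importer gene that MTF1 represses in animal models.

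Some zinc transporter genes fell, and by edgeR 0 rose, with 2 importers and 0 exporters higher at an unadjusted p under 0.05 and 0 by DESeq2, where 5.56% of all genes fell and 7.13% rose. Of 11 zinc importers of the SLC39 family, SLC39A10 (-0.60 ± 0.09, edgeR adjusted p = 4.44e-05) and SLC39A6 (-0.30 ± 0.09, edgeR adjusted p = 0.0207) fell, and the list's median was -0.16. SLC39A10 was lower with circ in both lines, at 581 counts against 900 in EJ and 713 against 1068 in T24T. It is the same gene as the fall in the list of metal-responsive transcription and MTF1 targets. Of 6 zinc exporters of the SLC30 family, SLC30A6, which loads zinc into the Golgi, fell (-0.61 ± 0.20, edgeR adjusted p = 0.0353), with 65 counts against 101 in EJ and 68 against 104 in T24T. DESeq2 called 1 importer and 0 exporters lower. The exporters' median was -0.20, and all 6 fitted values were below 0, between -0.61 and -0.09.

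Copper and iron genes are the other metal lists. Of 16 copper handling genes 0 passed by edgeR, where 12.7% of all genes tested were called, and 0 by DESeq2. At an unadjusted p under 0.05 by edgeR 3 passed, and the list's median was -0.03. STEAP3, a metal reductase gene, came nearest at 0.27 ± 0.09 (edgeR adjusted p = 0.0597). Of 12 iron handling genes, 4 fell and 1 rose by edgeR, where 5.56% of all genes tested fell and 7.13% rose. The list's median was -0.12, and DESeq2 called 0. NCOA4, which delivers ferritin to autophagy, changed by -0.40 ± 0.10, ACO1, an iron-sensing RNA-binding protein gene, by -0.34 ± 0.09, PCBP2, an iron chaperone gene, by -0.26 ± 0.08, and the ferritin light chain gene FTL by -0.27 ± 0.09. HMOX1, encoding heme oxygenase, rose by 0.48 ± 0.15, at 1.20 within EJ and 0.05 within T24T.

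Lists of genes that other stimuli induce, some of them inducers of metallothioneins too, held rises with circ. Of 13 tested genes induced by cadmium or arsenite, 8 rose and 0 fell by edgeR, where 7.13% of all genes tested rose and 5.56% fell. Their median was 0.44. DESeq2 called 2 of them higher, where it called 181 of all 17689 genes higher. At an unadjusted p under 0.05 by edgeR 11 were higher and 0 lower. ATF3 rose by 1.98 ± 0.14, the HSP70 genes HSPA1A by 1.13 ± 0.11 and HSPA1B by 1.13 ± 0.12, and the co-chaperone gene BAG3 by 0.57 ± 0.10. HSPA1A and HSPA1B are near-identical copies, and their counts are uncertain singly. Of 11 glucocorticoid-induced genes, 4 rose and 0 fell by edgeR, with a median of 0.13, where 7.13% of all genes rose and 5.56% fell. The numbers were the same at an unadjusted p under 0.05 by edgeR, and DESeq2 called 0. The 4 rises were those of FKBP5, a glucocorticoid receptor co-chaperone gene (0.40 ± 0.09), GADD45B (0.55 ± 0.12), the NF-kB inhibitor gene NFKBIA (0.35 ± 0.09) and the phosphatase gene DUSP1 (0.58 ± 0.18). DUSP1 had 1592 and 1233 counts in EJ and 821 and 2350 in T24T. Of 16 thiol and glutathione buffering genes, the peroxiredoxin gene PRDX1 fell (-0.54 ± 0.08), at -0.63 within EJ and -0.45 within T24T. The thioredoxin reductase gene TXNRD1 of this list rose (0.31 ± 0.09), at 0.09 within EJ and 0.53 within T24T. That list's median was -0.11, and its 2 calls of 16 compare with 12.7% of all genes. The lists share genes: TXNRD1, and HMOX1 of the iron list, are also among the 8 rises of the cadmium and arsenite list. Of the thiol and glutathione list, DESeq2 called 0 higher and 1 lower, and at an unadjusted p under 0.05 by edgeR 1 was higher and 5 lower.

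**Figure D5:**
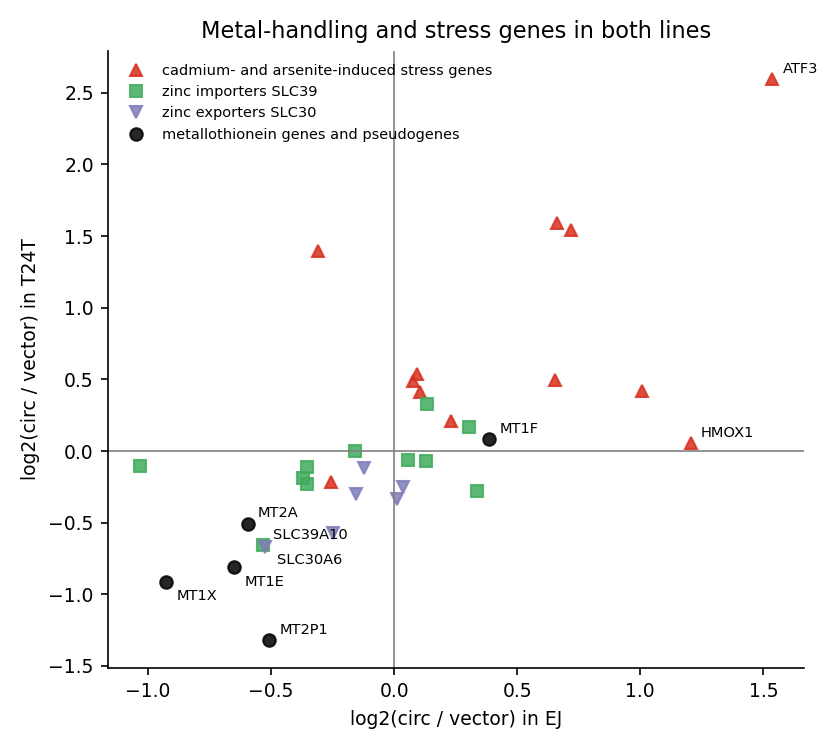
Log2 ratio of circ over vector in EJ (x axis) and T24T (y axis) for tested metallothioneins, zinc transporters and genes induced by cadmium or arsenite, 1 point per gene. MT2A, MT1E, MT1X and the uncertain MT2P1 lie at the lower left with SLC39A10 and SLC30A6, and most stress genes lie at the upper right, ATF3 farthest at 1.54 and 2.60.

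Genes with the most similar pattern over the 4 libraries were found by the distance between TMM-scaled log2 levels centred on each gene's mean, among genes with a mean of at least 100 counts. Closest to MT2A were GRB7, an adaptor protein gene (distance 0.096), MAP3K5, which encodes the stress kinase ASK1 (0.113), the pseudogene RPSAP54 (0.122) and the matrix gene LTBP2 (0.128). Closest to MT1X were RP11-343H19.2 (0.0502), SLCO4A1, an organic anion transporter gene (0.132), SLCO4A1-AS1 (0.176) and UBALD2 (0.196). RP11-343H19.2 shares 321 exonic bases with MT1X and may share its reads, so its likeness is not independent. SLCO4A1-AS1 lies within the bounds of SLCO4A1 on the opposite strand, and shared reads between these were not tested. Closest to MT1E were SNORD3C (0.262), PITPNC1 (0.274), the phosphate transporter gene SLC20A1 (0.304) and TSPAN14 (0.314). MT1X itself lay at 0.387 from MT2A, MT1E at 0.648 and MT1F at 1.01, so other genes resembled MT2A more than the other members did. With 4 libraries, many genes can share such a pattern, and the distances are a description.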

How the data were processed

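The authors deposited raw read counts for 56303 genes and RPKM values for 29817, in 1 column per library, with a gene length per row. Trimmomatic, HISAT2 and hg38 are named in the submitters' processing notes, while the counting tool, annotation and use of strand are not given in the sources used here. Deposited RPKM equalled count over length and total count in 100% of values (relative tolerance 1e-06). Columns were matched to samples by description, where T24T is written T24, and 0 were left out.

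Genes with 10 or more counts in 1 library and 20 or more in all were tested, 17689 in all, with the edgeR (4.0.16) quasi-likelihood test on TMM-scaled counts, with line and transfection in the model and Benjamini-Hochberg adjustment at 0.05 (common biological coefficient of variation 0.0704, 30.5 prior degrees of freedom). Log2 ratios within a line used a prior count of 2 and folds an exact 95% binomial interval. DESeq2 (1.42.0) and limma (3.58.1) served as alternatives, with other scalings, filters, prior counts and RPKM scales. Of 305 genes lying wholly within an opposite-strand gene, 244 had 20 or more counts, so strand may not part overlapping genes. Whether the libraries came from separate cultures is not stated. With 1 residual degree of freedom, the edgeR p-values rest mostly on spread pooled over genes. They do not measure the spread between repeated cultures or transfections.

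Members, lists and the rule for named genes were chosen with earlier results of these data known. The rule takes all metallothioneins, MTF1 and SLC30A1, up to 4 genes per list with the smallest p, tested genes within 500 kb of the cluster and the 4 genes most like MT2A, MT1E and MT1X. FTL falls outside this rule and was chosen after its values were seen. Symbols are as in the table. The MT1IP, MT1LP, MTL3P and MT1P2 of the list matched no row. One leukocyte marker is not reported here.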

Additional observations from a re-analysis of the deposited data

Results flagged for a closer look

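Of 64 tested genes under the rule for named genes, 2 had 95% counting intervals of circ over vector on opposite sides of 1 in the lines. CTGF, a matrix-associated growth factor gene held in the list of metal-responsive genes, was lower with circ in EJ and higher in T24T, with 5409 counts under vector and 2383 under circ in EJ, and 2835 and 3900 in T24T. On the log2 scale circ over vector was -1.08 for EJ but 0.38 for T24T, which differ by 1.47. DUSP1, from the list of glucocorticoid-induced genes, likewise stood at -0.27 for EJ but 1.44 for T24T, which differ by 1.71, so its rise over both lines rests on T24T. These differences were not tested, as each line has 1 library per transfection. Of the listed genes outside the rule for named genes, SLC7A11 (-0.31 for EJ, 1.40 for T24T), TFRC (0.62, -0.18), SOD1 and ERRFI1 also had intervals on opposite sides of 1, and they were chosen after their values were seen. No metallothionein went in opposite directions in this way.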

How the results depend on the processing

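The falls of MT2A, MT1E and MT1X kept their direction under every alternative that gave a value. All 3 were called with RLE factors, library size alone, no filter, the stricter filter and limma-voom, and DESeq2 called 2. With limma on log2(RPKM + 1) or log2(RPKM + 0.1), and without the cell line block, 0 members were called, as 0 of all genes were (3588, 3713 and 397 genes at an unadjusted p under 0.05). DESeq2 called 334 genes for circ against 2246 with edgeR. Between lines, 4 members were called in every alternative except the stricter filter, which left MT1F out. There DESeq2 called 3217 genes and the fit without the transfection block 3192, against 7315. The summed log2 ratio in T24T, -0.51, was -0.53 with library size alone and -0.54 on both RPKM scales. Leaving mitochondrial genes out of the total raised the metallothionein share to 0.527% and 0.342% in EJ vector and circ and to 1.34% and 0.909% in T24T. The model with cell line as a block pairs circ with vector within each line, and the labels give no replicate numbers for any other pairing. Leaving out a library leaves no residual degree of freedom, so no such fit was made. Depth limits MT1F, MT1G, MT1M and MT2P1.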
